A study of Mus musculus with 16 samples.

Results

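The 10 genes described here encode chaperones of the cytosol and of the endoplasmic reticulum, measured in the brains of old mice that overexpress a mutant form of Twinkle, a helicase of the mitochondrial DNA replication machinery, and of wild-type mice. The members were the probe sets whose single gene symbol in the platform annotation was Hspa1a, Hspa1b, Hspa5, Hspa8, Hsp90aa1, Hsp90b1, Hspb1, Hsph1, Dnajb1 or Pdia4. All 10 genes were found, on 26 of the 34843 probe sets that carry 1 symbol, which stand for 18168 genes. Affymetrix arrays were hybridised with labelled total RNA from cerebellum and from hippocampus, with 4 arrays for each of 4 groups and 16 arrays in all, and the titles call the samples of a group biological replicates. In each region the mutant Twinkle overexpressors were 24, 24, 21 and 21 months old and the wild-type mice 26, 24, 21 and 23 months old, in the order of replicates 1 to 4. Genotype was thus balanced over an older class of 24 to 26 months and a younger class of 21 to 23 months, with 2 mutant and 2 wild-type arrays of each region in either class. Ages within a class were not matched. The samples of 26 and 23 months were wild type and older than the mutants of their class. The older class is replicates 1 and 2 of every group and the younger class replicates 3 and 4, so age and anything else shared by these replicate numbers cannot be told apart. The promoter that drives the transgene, the strain and the sex were not given in the sources used here, and whether a sample pools animals was not given either. The ages by replicate are the same in both regions. Whether both regions came from the same mice was not given, and the main tests took the 16 arrays as independent. One free-text label of the hippocampus arrays mentions cerebellum; their title, source and tissue field say hippocampus, and they are treated as such.

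Chaperones of the Hsp70 family bind exposed hydrophobic stretches of unfolded proteins and release them in a cycle driven by ATP. J proteins such as Dnajb1 start that cycle, exchange factors such as Hsph1 reset it, and Hsp90 takes over later steps of folding for many kinases and receptors. In the cytosol, stress releases heat shock factor 1, which switches on the inducible genes. In the endoplasmic reticulum, unfolded protein releases the sensors Ern1, Eif2ak3 and Atf6 from Hspa5, and these switch on the chaperones of that compartment through Xbp1, Atf4 and the cleaved form of Atf6. In neurons, Hspa8, the constitutive Hsp70, also takes the clathrin coat off endocytic vesicles.

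The inducible members and those of the endoplasmic reticulum carry different elements upstream of their starts, and 4 cytosolic and endoplasmic promoters that the results turn on are shown with those of Hsp90b1 and Calr for this reason. The sequences are the bases just before the RefSeq start of each gene, 5′ to 3′ on the strand of the gene, from build GRCm38.p6. Capitals mark a match to the heat shock element (GAANNTTC or TTCNNGAA) in the first 3 and to the endoplasmic reticulum stress element (CCAAT, 9 bases, CCACG, on either strand) in the others.
Hspa1a, chr17:34972157-34972306, minus strand: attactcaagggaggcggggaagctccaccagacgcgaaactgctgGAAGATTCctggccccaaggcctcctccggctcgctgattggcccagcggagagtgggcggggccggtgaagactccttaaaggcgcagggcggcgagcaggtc
Hspa1b, chr17:34959239-34959388, minus strand: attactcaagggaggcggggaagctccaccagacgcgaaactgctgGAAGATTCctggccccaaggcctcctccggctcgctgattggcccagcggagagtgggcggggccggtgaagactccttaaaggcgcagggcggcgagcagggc
Hspb1, chr5:135887769-135887918, plus strand: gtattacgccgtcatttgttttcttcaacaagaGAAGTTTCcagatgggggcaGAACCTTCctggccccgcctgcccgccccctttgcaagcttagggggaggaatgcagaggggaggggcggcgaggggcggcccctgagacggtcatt
Hspa5, chr2:34771940-34772089, plus strand: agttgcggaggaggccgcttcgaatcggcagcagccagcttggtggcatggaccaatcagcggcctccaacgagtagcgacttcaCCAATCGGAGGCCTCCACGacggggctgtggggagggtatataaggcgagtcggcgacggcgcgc
Hsp90b1, chr10:86705445-86705694, minus strand: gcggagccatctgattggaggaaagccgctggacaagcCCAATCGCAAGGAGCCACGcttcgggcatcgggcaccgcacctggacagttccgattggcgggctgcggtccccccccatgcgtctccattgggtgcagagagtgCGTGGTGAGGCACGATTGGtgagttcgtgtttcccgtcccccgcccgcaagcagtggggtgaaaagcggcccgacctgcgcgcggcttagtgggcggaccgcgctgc
Calr, chr8:84846932-84847111, minus strand: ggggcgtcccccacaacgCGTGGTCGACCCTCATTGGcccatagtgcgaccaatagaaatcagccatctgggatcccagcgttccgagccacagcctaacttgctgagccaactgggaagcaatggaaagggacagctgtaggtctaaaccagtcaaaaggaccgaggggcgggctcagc
The table of RefSeq promoters held 8 of the 10 members. Within 250 bases before the start, a heat shock element match lay in 4 of them, Hspa1a and Hspa1b at -104, Hspb1 at -117 and -97, and Hsph1, whose 2 annotated starts put the same match at -33 and -54. The same search found such a match in 12.8% of all 32851 windows of that length, so the short motif is common. The endoplasmic reticulum stress element was found in 2 members, Hspa5 at -65 and Hsp90b1 at -212 and, on the opposite strand, at -107, against 0.113% of all windows. Neither motif was matched in the windows of Dnajb1 and Pdia4, which says only that these letters are not in these windows. The 150 bases shown for Hspa1a and Hspa1b are identical at 149 positions. These neighbours on chromosome 17 are near-identical copies in their transcripts too, so a probe set of one may also bind the transcript of the other, and their values are read as those of a pair.

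The deposited values are relative. Each probe set was centred on its median over the 8 arrays of its region, which held within 1e-05 for 99.94% of the probe sets in either region, so a value of 0 is the middle array and no value is a level of expression. Neither levels of different genes nor levels in the 2 regions can be compared. The base of the logarithm was not given in the sources used here and is taken as 2; if it were the natural logarithm, each difference would be 1.443 times as large on the log2 scale. For the same reason the tissue labels could not be checked against levels of region markers, only against differences between arrays of a region. On hippocampus wild-type replicate 1, a list of 8 cerebellar granule neuron genes averaged 2.95 above the hippocampus median and 5 Purkinje cell genes 2.07, with Gabra6, the granule cell GABA receptor subunit, at 6.28. Hippocampus mutant replicate 1 stood at 0.94 and 0.67 on these lists, and the other 6 hippocampus arrays between -0.30 and 0.30 for the granule list. Choroid plexus genes averaged 2.19 on hippocampus mutant replicate 4. The single probe set of Twnk, the gene of Twinkle, differed between mutant and wild type by 0.06 (SE 0.05) in either region, with limma adjusted p-values of 0.915 in the cerebellum and 0.766 in the hippocampus. Whether that probe set lies within the transgene was not given, so it does not check the labels.

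No member passed the test in any comparison, and neither did any other gene. The test was limma on the mean of a gene's probe sets, with Benjamini-Hochberg adjustment over all 18168 genes at 0.05. The share of genes called was 0% for genotype and for age in either region, for the difference of each between the regions and for genotype by age in either region. At an unadjusted p under 0.05, limma gave 979 genes (5.389%) for genotype in the cerebellum, 1459 (8.031%) for genotype in the hippocampus, 764 (4.205%) for age in the cerebellum and 1190 (6.55%) for age in the hippocampus. Among the members the same count was 0, 0, 2 and 0 of 10. The values below are therefore descriptions of 16 arrays, with the spread between them.

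**Figure D1:**
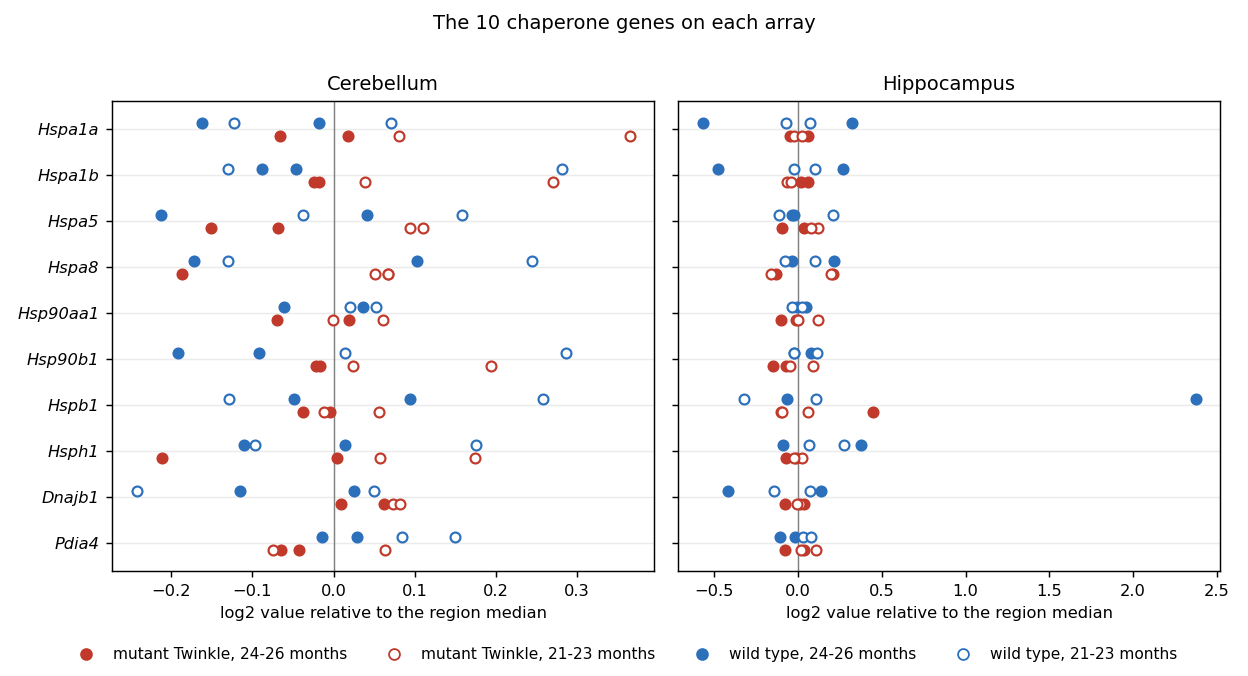
Value of each of the 10 genes on each array, as log2 relative to the median of the 8 arrays of its region; each point is 1 array, red for mutant Twinkle and blue for wild type, filled for 24 to 26 months and open for 21 to 23 months. In the cerebellum all values lie between -0.24 and 0.365, with open points to the right for Hsp90b1, and in the hippocampus Hspb1 of wild-type replicate 1 stands alone at 2.37.

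In the cerebellum, members lay lower at 24 to 26 months than at 21 to 23 months for 9 of 10 genes, with a median difference of -0.13 against 0.005 over all genes, but none passed the test after adjustment. The difference was widest for Hsp90b1 and Hspa5, which were also the members with an unadjusted p under 0.05. Both act in the endoplasmic reticulum, but the third member of that compartment, Pdia4, lay closer to 0 than the cytosolic Hspa1a, Hspa1b, Hsph1 and Hspa8. Dnajb1, the J protein that partners the inducible Hsp70s, was the exception at 0.0051. Bulk tissue was measured, so fewer cells of a type and less RNA per cell cannot be told apart here or in any comparison that follows.

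Hsp90b1 encodes the Hsp90 of the endoplasmic reticulum, which folds integrins and Toll-like receptors. In the cerebellum it stood at -0.02 and -0.02 on older mutant arrays and at -0.19 and -0.09 on older wild-type arrays. The younger mutant arrays had 0.02 and 0.19, and the younger wild-type arrays 0.29 and 0.01. All 4 older arrays were thus below all 4 younger ones, which held for no other member and for 0.765% of all genes in this comparison (2.26% were free of overlap in either direction). The older class lay 0.21 below the younger on the log2 scale (difference -0.21, SE 0.07, 4 arrays each; limma adjusted p = 0.9993). Its 2 probe sets gave -0.23 (SE 0.09) and -0.19 (SE 0.07) and correlated at 0.889 over the 8 cerebellum arrays. Without wild-type replicate 3, the highest array, the difference was -0.14, so that 1 array moves it by over 1.5 times. In the hippocampus the difference was -0.08 (SE 0.07; limma adjusted p = 0.8791). The difference of the age effects between the regions, 0.13 (SE 0.10), did not pass the test either (limma adjusted p = 0.9417).

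Hspa5, also called BiP, is the Hsp70 of the endoplasmic reticulum and holds the stress sensors inactive. In the cerebellum its values were -0.15 and -0.07 on older mutant arrays, -0.21 and 0.04 on older wild-type arrays, 0.09 and 0.11 on younger mutant arrays and 0.16 and -0.04 on younger wild-type arrays. The classes overlapped through wild-type replicates 2 and 4, whose values fell in the range of the other class. The older class lay 0.18 below the younger (difference -0.18, SE 0.08; limma adjusted p = 0.9993). The 3 probe sets of Hspa5 did not behave alike. Of these, 2 correlated at 0.960 in the cerebellum and gave age differences of -0.27 (SE 0.10) and -0.27 (SE 0.12), while the third had correlations with them down to -0.43 and gave -0.0015 (SE 0.07). The hippocampus showed the same split, with -0.15 (SE 0.10), -0.19 (SE 0.12) and 0.04 (SE 0.07). For the gene as a whole, hippocampus values were -0.09, 0.04, -0.04 and -0.02 on older arrays and 0.12, 0.08, 0.21 and -0.11 on younger ones. These overlap, and the difference of -0.10 (SE 0.08) had a limma adjusted p of 0.8221.

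Pdia4, a protein disulfide isomerase of the same compartment, differed by -0.08 (SE 0.05; limma adjusted p = 0.9993) between the age classes in the cerebellum and by -0.10 (SE 0.05; limma adjusted p = 0.7504) in the hippocampus. Its hippocampus values were -0.08, 0.04, -0.02 and -0.11 on older arrays and 0.02, 0.11, 0.03 and 0.08 on younger arrays, so 3 of the 4 older arrays lay below every younger one. The mean rests on probe sets that moved apart: one gave -0.21 (SE 0.08) and the other 0.01 (SE 0.07) in the hippocampus, and the 2 correlated at -0.025 there and at -0.23 in the cerebellum.

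The inducible cytosolic Hsp70 genes Hspa1a and Hspa1b differed between the age classes of the cerebellum by -0.16 (SE 0.14) and -0.16 (SE 0.13). Hspa1a stood at -0.07, 0.02, -0.16 and -0.02 on older arrays and at 0.08, 0.365, 0.07 and -0.12 on younger ones, where mutant replicate 4 was high. Hspa1b was at 0.27 on that array and at 0.28 on wild-type replicate 3, with -0.13 on wild-type replicate 4, below every older array. Younger arrays were thus more spread out (SD 0.20 for both genes, n = 4) than older ones (SD 0.08 and 0.03, n = 4), and neither difference approached the threshold (limma adjusted p = 0.9993 for each).

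Hsph1, the Hsp110 that acts as an exchange factor for Hsp70, differed by -0.15 (SE 0.09; limma adjusted p = 0.9993) with age in the cerebellum, and Hspa8 by -0.11 (SE 0.11). Hsph1 was lowest on mutant replicate 1 at -0.21 and highest on wild-type replicate 3 at 0.18 and mutant replicate 3 at 0.17. Hsp90aa1, the inducible cytosolic Hsp90, differed by -0.05 (SE 0.05), and Hspb1, a small heat shock protein that holds unfolded proteins in solution, by -0.04 (SE 0.37). The wide standard error of Hspb1 comes from the fit, which pools the spread of both regions and so carries the hippocampus array at 2.37; the 8 cerebellum values of Hspb1 lay between -0.13 and 0.26.

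**Figure D2:**
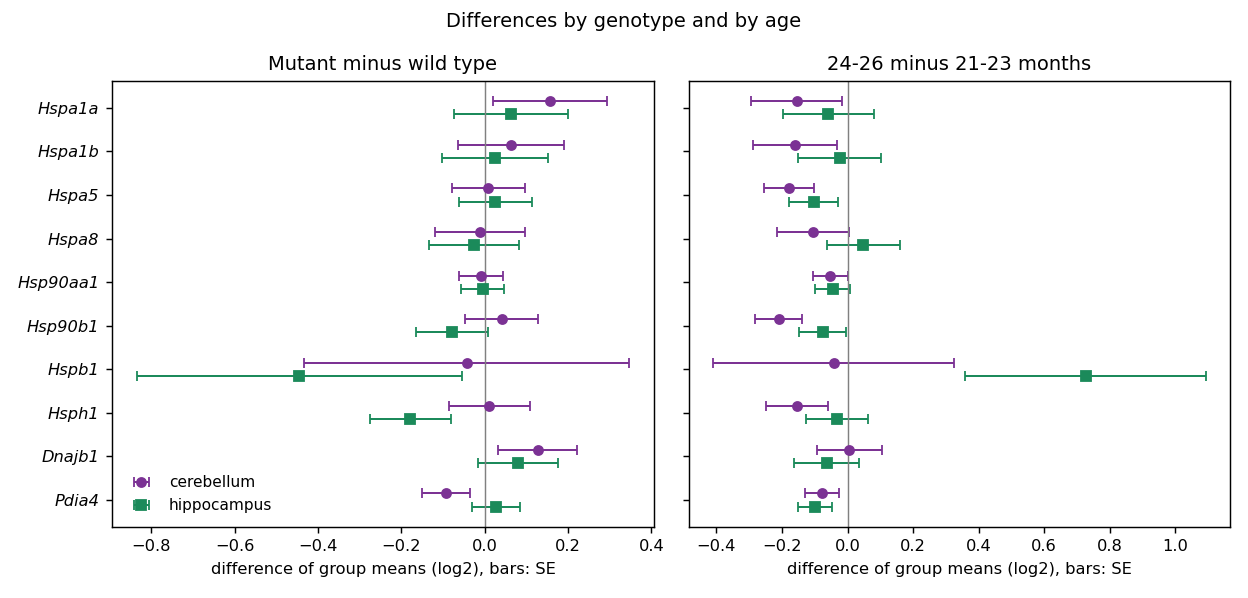
Difference of group means for each gene, mutant minus wild type on the left and 24 to 26 minus 21 to 23 months on the right, in log2 units, for cerebellum (purple circles) and hippocampus (green squares); bars are the standard errors of the limma fit. In the cerebellum 9 of 10 age differences lie below 0, the widest being -0.21 for Hsp90b1, and Hspb1 has the widest bars in both panels, with an age difference of 0.73 in the hippocampus.

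Cerebellum wild-type replicate 3 averaged 0.17 over the 10 members, the highest of the 8 cerebellum arrays, and mutant replicate 4 followed at 0.12. Without wild-type replicate 3 the median age difference of the members was -0.07, with 8 of 10 below 0, and without wild-type replicate 4 it was -0.20 with 10 of 10 below 0. On wild-type replicate 3 the 6 pan-neuronal genes averaged 0.21 and the 6 oligodendrocyte genes measured 0.26. Over the age classes of the cerebellum, the pan-neuronal list ranged from -0.11 to 0.10 on older arrays and from 0.01 to 0.21 on younger ones. The microglia list (7 of 7 genes) ranged from 0.06 to 0.36 on older arrays and from -0.21 to -0.12 on younger ones, without overlap. Its hippocampus ranges, -0.05 to 0.38 on older and -0.16 to -0.09 on younger arrays, did not overlap either. In the cerebellum, the 3′ minus 5′ difference of the Actb control probe sets, which moves with RNA length, ranged from -0.07 to 0.05 on older arrays. On younger cerebellum arrays it ranged from 0.0053 to 0.14. Their part in the age difference of the chaperones was not tested. With age in months as a slope in place of the 2 classes, all 10 members lay below 0 in the cerebellum with a median of -0.17, scaled to the distance of the class means, and the lowest limma adjusted p among them was 0.281, for Hsp90b1.

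In the hippocampus, 8 of 10 members lay lower in the older class, with a median of -0.05 against -0.0094 over all genes. The age classes of every member overlapped (0 of 10 free of overlap, against 3.5% of all genes). The count rested on wild-type replicate 1: without it 5 of 10 lay below 0 and the median was 0.0035. Hspb1 stood out by size, with a difference of 0.73 (SE 0.37; limma adjusted p = 0.7504). Its hippocampus values were 0.45 and -0.10 on older mutant arrays, 2.37 and -0.07 on older wild-type arrays, -0.09 and 0.06 on younger mutant arrays and 0.11 and -0.32 on younger wild-type arrays. A single array thus carries the difference, which was 0.13 without it. The 2 probe sets of Hspb1 stood at 2.32 and 2.43 on that array and correlated at 0.997 over the hippocampus arrays. The 2 hippocampus arrays highest for Hspb1 are the 2 with the highest granule neuron and Purkinje lists. Mutant replicate 1 had 0.45 for Hspb1 beside 0.94 and 0.67 for the lists, and wild-type replicate 1 had 2.37 beside 2.95 and 2.07. With these 2 arrays, hippocampus mutant replicate 4 and cerebellum wild-type replicate 1 left out because lists of another tissue were raised on them, the Hspb1 difference was 0.02. Hippocampus wild-type replicate 1 was also the highest hippocampus array for the astrocyte (0.34) and microglia (0.38) lists. Its choroid plexus list averaged 0.98. The part of any of these lists was not tested.

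**Figure D3:**
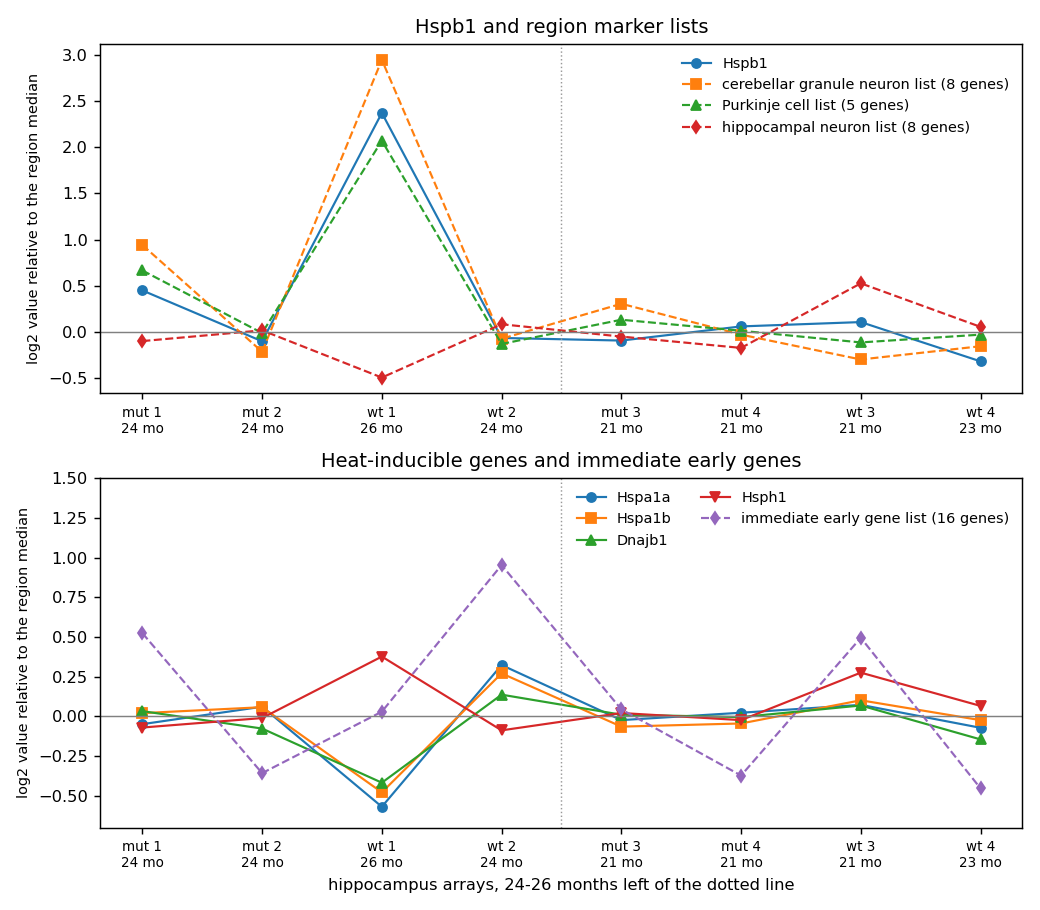
Values on the 8 hippocampus arrays as log2 relative to the hippocampus median, with genotype, replicate and age in months on the x axis. Above, Hspb1 (solid) with the means of 3 neuron marker lists (dashed); wild-type replicate 1 is highest for Hspb1 (2.37), granule (2.95) and Purkinje (2.07) lists and lowest for the hippocampal neuron list (-0.50). Below, Hspa1a, Hspa1b, Dnajb1 and Hsph1 (solid) with the immediate early gene list (dashed), which is highest on wild-type replicate 2 at 0.95.

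The heat-inducible trio Hspa1a, Hspa1b and Dnajb1 went the other way on hippocampus wild-type replicate 1, which was the lowest of the 8 arrays for each of them at -0.57, -0.48 and -0.42. The same array was lowest for the mean of the list of 8 hippocampal neuron genes (-0.50) and highest for Hsph1 (0.38). That list was split on this array. Fibcd1 (-2.04), Spink8 (-1.63), Neurod6 (-0.96) and Dsp (-0.93) lay below 0. C1ql2 (1.02), Wfs1 (0.30), Prox1 (0.26) and Lct (0.0025) lay above 0. Wild-type replicate 2 was the highest array for the trio, at 0.32, 0.27 and 0.14, and also for the 16 immediate early genes, which are switched on by neuronal firing (mean 0.95, with Arc at 1.58). Immediate early genes were also raised on mutant replicate 1 (0.52) and wild-type replicate 3 (0.49), where the trio lay between -0.05 and 0.10. The age difference of the trio in the hippocampus was -0.06 (SE 0.14), -0.02 (SE 0.13) and -0.06 (SE 0.10), with limma adjusted p-values from 0.943 to 0.988. Without wild-type replicate 1 the signs reversed to 0.13, 0.15 and 0.06. They also reversed, to 0.22, 0.18 and 0.06, without the arrays on which lists of another tissue were raised, which in the hippocampus are wild-type replicate 1 and mutant replicates 1 and 4.

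By genotype, with no term for age, the members lay on both sides of 0. Mutant arrays lay above wild-type arrays for 6 of 10 members in the cerebellum (median 0.0098, all genes 0.0074) and for 5 of 10 in the hippocampus (median 0.0098, all genes 0.02). With age in months as a term, 8 of 10 members lay below 0 in the cerebellum (median -0.04) and 7 of 10 in the hippocampus (median -0.02). The lowest limma adjusted p of a member was then 0.5312, for Pdia4 in the cerebellum. No member's genotype groups were free of overlap, which 2.46% of all genes were in the cerebellum and 4.76% in the hippocampus. Without that term, the lowest limma adjusted p of a member was 0.8836 in the cerebellum, for Pdia4, and 0.6377 in the hippocampus, for Hsph1. Some cell type lists separated the genotypes. Blood cell genes (4 of 7 measured) ranged from -0.12 to -0.07 in mutants and from 0.04 to 0.35 in wild type in the cerebellum. In the hippocampus they ranged from -0.30 to -0.06 and from 0.06 to 0.67. Of the blood cell genes, only Alas2 separated the genotypes in both regions. In the cerebellum Alas2 ranged from -0.34 to -0.19 in mutants and from 0.19 to 1.25 in wild type. Hbb-b2 separated them in the cerebellum only, and Hba-a1 and Slc4a1 overlapped in both regions. Ependymal genes in the hippocampus were higher in mutants (-0.03 to 0.53 against -0.34 to -0.04). So were meninges and fibroblast genes (0.04 to 0.75 against -0.26 to -0.03). The other cell type lists overlapped, and the part of any list was not tested.

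In the cerebellum, Hspa1a was higher by 0.16 (SE 0.14) and Dnajb1 by 0.13 (SE 0.10) in mutants, and Pdia4 lower by 0.09 (difference -0.09, SE 0.06). Dnajb1 was tight in mutants, with 0.01, 0.06, 0.07 and 0.08, and wide in wild type, with -0.12, 0.03, 0.05 and -0.24. Pdia4 stood at -0.04, -0.06, 0.06 and -0.08 in mutants and at 0.03, -0.01, 0.15 and 0.08 in wild type, which overlap through mutant replicate 3. The other 7 members differed by 0.06 or less in either direction.

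In the hippocampus, Hsph1 lay at -0.07, -0.01, 0.02 and -0.02 in mutants and at 0.38, -0.09, 0.28 and 0.07 in wild type. The mutant values fell within the range of the wild type, and the difference of -0.18 (SE 0.10; limma adjusted p = 0.6377) became -0.11 without wild-type replicate 1. Hspb1 differed by -0.45 (SE 0.39; limma adjusted p = 0.7826), and leaving out that same array reversed the sign to 0.17. Hsp90b1 differed by -0.08 (SE 0.09), Dnajb1 by 0.08 (SE 0.10) and Hspa1a by 0.06 (SE 0.14). Hspa5, whose rise is the usual sign of a stressed endoplasmic reticulum, differed between genotypes by 0.0090 (SE 0.09) in the cerebellum and by 0.03 (SE 0.09) in the hippocampus. Hsp90aa1 had the smallest standard errors of the members, with differences of -0.0094 (SE 0.05) and -0.0052 (SE 0.05), though its 5 probe sets correlated with one another from -0.67 to 0.49 in the cerebellum. The mean of all 4 probe sets of Hspa8 differed by -0.01 (SE 0.11) and -0.03 (SE 0.11), and 1 of its probe sets swung more widely than the other 3, from -0.57 to 0.42 in the cerebellum and from -0.38 to 0.89 in the hippocampus.

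Neither the genotype effect nor the age effect of a member differed between the regions beyond the spread of the arrays. Hspb1 had the widest difference of effects among the members for either, 0.77 (SE 0.52) by age and -0.40 (SE 0.55) by genotype. The lowest limma adjusted p-values of a member were 0.9417 by age, for Hspb1, and 0.8793 by genotype, for Pdia4 at 0.12 (SE 0.08). The age effect in mutants also did not differ from that in wild type by the test, with 2 arrays in each cell of that comparison. Hsp90b1 lay lower in the older class of the cerebellum in both genotypes, by -0.13 in mutants and -0.29 in wild type (interaction 0.16, SE 0.14; limma adjusted p = 1). Hspa5 gave -0.21 and -0.15 in the same order.

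The other genes of these pathways were taken from 9 lists of 105 symbols, of which 97 were measured. As for the members, limma with Benjamini-Hochberg adjustment called 0 of 97 in each of the 4 comparisons of genotype and age, against 0% of all genes. At an unadjusted limma p under 0.05 the counts were 4, 8, 5 and 10 of 97. The shares of all genes were 5.389%, 8.031%, 4.205% and 6.55% in the same order (genotype in cerebellum and hippocampus, then age in each). Chaperones and co-factors of the endoplasmic reticulum lay lower in the older class for 11 of 14 listed genes in the cerebellum (median -0.10) and for 13 of 14 in the hippocampus (median -0.04). The list holds Cabp1, a symbol that in this annotation belongs to a calcium-binding protein of neurons and not to a chaperone of this compartment. Without it the counts were 10 of 13 (median -0.10) and 12 of 13 (median -0.05). Without Cabp1 and with 1 array left out, they ranged from 8 to 11 of 13 in the cerebellum, where the median was -0.06 without wild-type replicate 3, and from 9 to 12 of 13 in the hippocampus. Calr, the lectin chaperone calreticulin whose promoter is shown above, had the widest difference of this list in the cerebellum, -0.33 (SE 0.10; limma adjusted p = 0.9993). It stood at -0.11, -0.20, -0.17 and -0.01 on older arrays and at 0.17, 0.01, 0.60 and 0.05 on younger ones, again highest on wild-type replicate 3, and these do not overlap. Without that array the difference of Calr was -0.20. Manf, a secreted protein released when the compartment loses calcium, differed by -0.25 (SE 0.12) in the cerebellum and by -0.29 (SE 0.12) in the hippocampus, and the Hspa5 co-factor Sdf2l1 by -0.24 (SE 0.13) in the hippocampus. The cerebellum value of Manf was -0.13 without wild-type replicate 3, and the value of Sdf2l1 was -0.13 without hippocampus wild-type replicate 3.

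Of the disulfide and proline isomerases, 9 of 12 lay lower in the older class in the cerebellum (median -0.03) and 8 of 12 in the hippocampus (median -0.03). Pdia3 led both, with -0.14 (SE 0.06) and -0.17 (SE 0.06) and limma adjusted p-values of 0.9993 and 0.6431. Next were Pdia5 in the cerebellum at 0.15 (SE 0.08) and Erp44 in the hippocampus at -0.11 (SE 0.06). Sensors and targets of the unfolded protein response were divided in the cerebellum, with 12 of 19 below 0 (median -0.0043), among them Atf6b at -0.29 (SE 0.08) and the ubiquitin ligase Syvn1 at -0.31 (SE 0.10). Syvn1 stood at 0.64 on wild-type replicate 3, and its difference was -0.17 without that array, against -0.22 for Atf6b. In the hippocampus 13 of 19 lay below 0 (median -0.03). Atf4, the factor translated when Eif2ak3 is active, was higher there by 0.14 (SE 0.06), and Derl2 differed by -0.13 (SE 0.06), both with unadjusted limma p-values under 0.05 and adjusted p-values of 0.7305 and 0.7498.

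Of the cytosolic lists in the cerebellum, 8 of 14 Hsp70 and Hsp110 family genes, 6 of 7 genes of Hsp90 and its co-chaperones and 5 of 12 chaperonin and prefoldin genes lay lower in the older class. In the hippocampus the counts were 10 of 14, 5 of 7 and 11 of 12, and no test compared the lists with each other. In the hippocampus the small heat shock protein genes Hspb6 and Hspb8 were higher in the older class by 0.53 (SE 0.19) and 0.24 (SE 0.10), as was Bag3, the exchange factor that links Hsp70 to small heat shock proteins, by 0.36 (SE 0.14). Hspb6 and Bag3 were, like Hspb1, highest on hippocampus wild-type replicate 1, at 1.05 and 0.54. Without that array the difference of Hspb6 was 0.26, of Hspb8 0.15 and of Bag3 0.24. The Hsp90 co-chaperones Ahsa1 and Chordc1 lay lower by 0.12 and 0.17 (differences -0.12, SE 0.05, and -0.17, SE 0.08), and Hspa4l, an Hsp110, by 0.13 (difference -0.13, SE 0.06). The chaperonin and prefoldin genes stayed close to 0, led by Cct5 at -0.06 (SE 0.05) and Cct7 at -0.05 (SE 0.05) there. Dnaja4 at -0.15 (SE 0.09) and Dnajb6 at -0.07 (SE 0.05) led the J proteins there, and the limma adjusted p-values of the genes named so far in these lists lay between 0.6838 and 0.8634. In the cerebellum, the 2 genes of smallest p by age in each of these lists included Hspa2 (0.21, SE 0.13), Hspb8 (0.19, SE 0.10) and Hspa12b (-0.17, SE 0.09). They also included Dnajb5 (-0.14, SE 0.12), Pfdn2 (0.12, SE 0.08), Hspb7 (0.10, SE 0.05), Fkbp4 (-0.10, SE 0.07) and Dnajc6 (-0.10, SE 0.07). Stip1 (-0.08, SE 0.05) and Cct8 (0.07, SE 0.05) were the others. None of these had an unadjusted limma p under 0.05.

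By genotype in the hippocampus, Atf6, the sensor that is cut in the Golgi to become a transcription factor, lay lower in mutants by 0.22 (difference -0.22, SE 0.07; limma adjusted p = 0.4943). In the cerebellum its difference was -0.15 (SE 0.07; limma adjusted p = 0.8836). The J protein gene Dnajb5 gave -0.31 (SE 0.12) and Wfs1 -0.31 (SE 0.14), the latter also a member of the hippocampal neuron list, whose mean ranged from -0.17 to 0.02 in mutants and from -0.50 to 0.53 in wild type. Higher in mutants were Txndc5 by 0.17 (SE 0.07), Dnajc10 by 0.15 (SE 0.06), Ppib by 0.12 (SE 0.06) and Hsbp1, a binding partner of heat shock factor 1, by 0.13 (SE 0.05), and lower was Dnajc1 (-0.15, SE 0.06). The small heat shock protein genes Hspb2 and Cryab gave 0.20 (SE 0.10) and 0.18 (SE 0.09), and Dnajb2 0.18 (SE 0.10). Hspb2 stood at 0.46 on hippocampus mutant replicate 1, and its difference was 0.08 without that array. The meninges and fibroblast list averaged 0.75 on the same array, and its part was not tested. In the cerebellum, Sil1, the exchange factor of Hspa5, was higher in mutants by 0.17 (SE 0.06), and 11 of 12 chaperonin and prefoldin genes lay above 0 (median 0.05), led by Cct2 at 0.12 (SE 0.05) and Cct4 at 0.11 (SE 0.05). Hspa14 gave 0.11 (SE 0.05), Dnajb4 0.11 (SE 0.05), Hspbp1 -0.14 (SE 0.07) and Dnajc6 -0.14 (SE 0.07). Cabp1 gave -0.27 (SE 0.12), which rested on wild-type replicate 3 at 0.73 and was -0.10 without it. None passed the limma test after adjustment. Of the 72 differences of the 2 genes with the smallest p in each list and comparison, 38 moved by over 1.5 times when 1 array was left out and 3 changed sign.

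Genes whose pattern over arrays was most like that of a member were ranked by the lower of the 2 Pearson correlations over the 8 arrays of each region, over 18168 genes less the members. For Hspa5 the first was Xbp1, with 0.905 in the cerebellum and 0.820 in the hippocampus, followed by Manf (0.837 and 0.813), Spry3, Methig1 and Calr (0.761 and 0.8289). Xbp1 is itself the factor through which the Ern1 arm acts. Dnajb11, Sdf2l1 and Pdia3 ranked 6, 7 and 16. Over the whole list of 14 chaperones and co-factors of the endoplasmic reticulum, the median of this likeness was 0.431 and 12 were positively correlated with Hspa5 in both regions, or 85.7%, against a median of -0.257 and 23.5% over all other genes. Without Cabp1 these were 0.4325 and 11 of 13. Of the cytosolic genes, 6 of 7 of the list of Hsp90 and its co-chaperones (85.7%, median 0.334) were positively correlated with Hspa5 in both regions too, as were 8 of the 9 other members (88.9%, median 0.256). The isomerase list (median -0.131) and the unfolded protein response list (median -0.0592) lay nearer to all genes, and the chaperonin list was at -0.205. These correlations share arrays and normalization, and the ranking chose the genes named, so they are descriptions and carry no p-value.

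**Figure D4:**
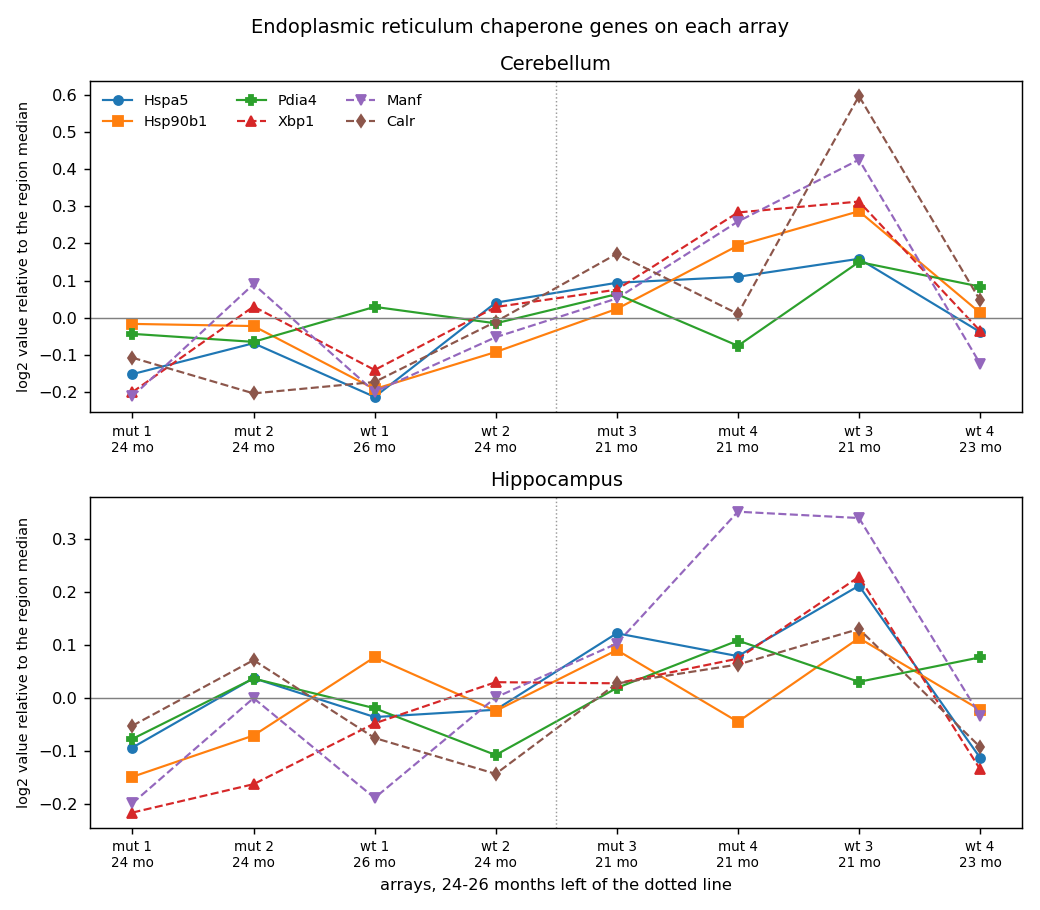
Values of the 3 endoplasmic reticulum members (solid) and of Xbp1, Manf and Calr (dashed) on each array, as log2 relative to the region median; x labels give genotype, replicate and age in months. In both regions wild-type replicate 3 is the highest array for Hspa5, Hsp90b1 and Xbp1. Xbp1, picked as the gene most like Hspa5, correlates with it at r 0.905 and 0.820.

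Xbp1 stood in the cerebellum at -0.20, 0.03, -0.14 and 0.03 on older arrays and at 0.08, 0.28, 0.31 and -0.04 on younger ones, so the same arrays were high as for Hspa5. In the hippocampus it was highest on wild-type replicate 3 (0.23), as Hspa5 was (0.21), and lowest on mutant replicate 1 (-0.22), where Hspa5 was -0.09. Xbp1 was picked as the gene most like Hspa5, so its correlation cannot be set against those among the 3 members of the compartment. In the cerebellum Hspa5 and Hsp90b1 correlated at 0.793 (Spearman's rho 0.833, exact permutation p = 0.01776 and 0.01538), and Hspa5 and Pdia4 at 0.32. The former fell to 0.484 without the 2 arrays farthest from the median of Hspa5. Pdia4 was most like Hdac4, Mesp2, Scamp3, Rptor and Cd164l2, none of them a chaperone gene. Hspa1b was most like Sipa1l2, Ccdc149, Gpr12, Bicdl1 and Wasf1, and Hsph1 like Stx6, Dleu2, Nrn1, Gcnt1 and A930024E05Rik.

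**Figure D5:**
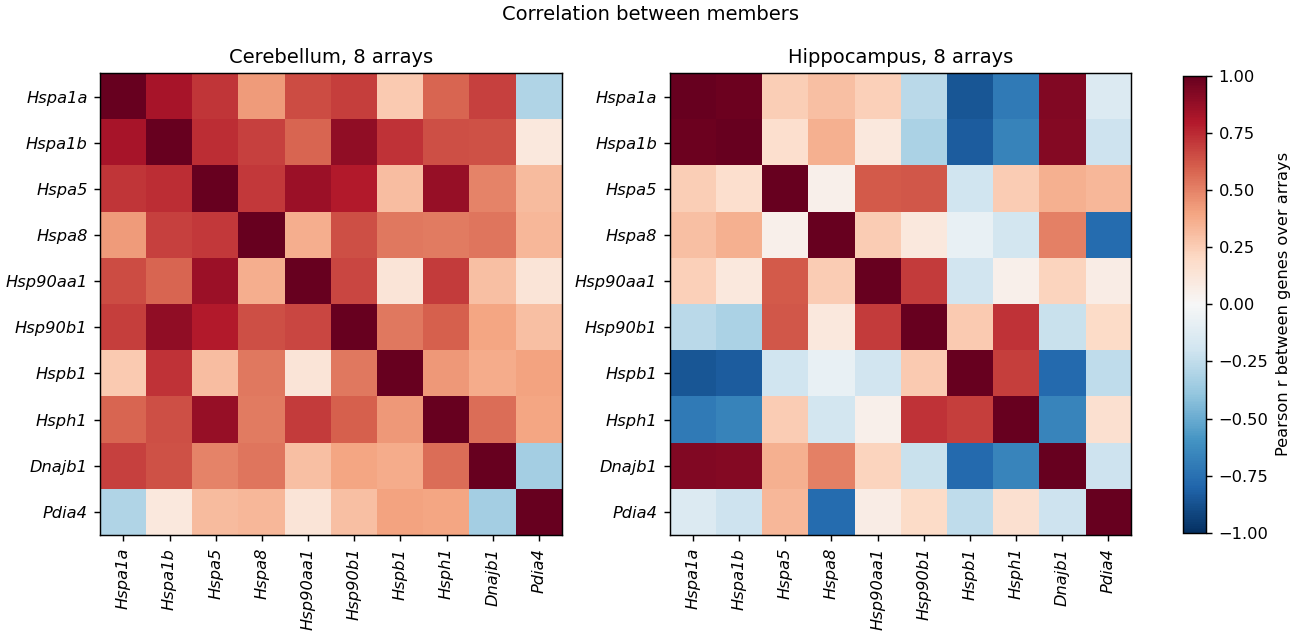
Pearson correlation between each pair of members over the 8 arrays of the cerebellum (left) and of the hippocampus (right), from -1 in blue to 1 in red. In the hippocampus Hspa1a, Hspa1b and Dnajb1 form a red block with r from 0.915 to 0.980 that is blue against Hspb1 and Hsph1. Without the 2 outermost arrays the blue pairs had r above 0, except that of Hsph1 with Dnajb1. In the cerebellum the pairs of Pdia4 with Hspa1a and Dnajb1 are the only negative ones.

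Correlations were computed for all 90 pairs of members within a region, and none passed Benjamini-Hochberg adjustment over the 90 (lowest adjusted p 0.104 by Pearson's r and 0.1004 by Spearman's rho, exact permutation). The highest in the hippocampus was that of the Hspa1a and Hspa1b copies (r 0.980, rho 0.810; exact permutation p = 0.001662 and 0.02178). Hspa1a with Dnajb1 gave r 0.927 and rho 0.762 (exact permutation p = 0.003795 and 0.03676). Both rest on wild-type replicates 1 and 2, without which r was 0.632 and 0.388. Hspa1a ran opposite to Hspb1 and Hsph1 there (r -0.853 and -0.711, rho -0.191 and -0.476). Without the same 2 arrays these r were 0.0755 and 0.453. Hsph1 with Dnajb1 gave r -0.663, and -0.857 without wild-type replicates 1 and 3. In the cerebellum, Hspa5 and Hsph1 correlated at 0.873 (rho 0.929, exact permutation p = 0.005853 and 0.002232), with 0.872 when the 2 outermost arrays were left out. The outermost arrays are those farthest from the median of the first-named gene, so the value depends on the order of the pair. Hspa1a and Dnajb1 there had the highest rho of all pairs, 0.952, beside r 0.680 (exact permutation p = 0.001141 and 0.07599). Hspa5 and Hsp90aa1 gave 0.853 (rho 0.810; exact permutation p = 0.007614 and 0.02178), with 0.741 without the outermost arrays, and Hspa1b and Hsp90b1 0.885 (rho 0.762; exact permutation p = 0.008085 and 0.03676), which fell to 0.354 without wild-type replicate 3 and mutant replicate 4. In the hippocampus Hspa8 and Pdia4 ran opposite (r -0.767, rho -0.905; exact permutation p = 0.02961 and 0.004563), and r was -0.572 without the 2 outermost arrays.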

How the data were processed

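Total RNA of mouse cerebellum and hippocampus was measured on Affymetrix arrays, 4 per group. The values are log2 values deposited by the authors, relative to the median of each probe set in its region; per the submitters' processing notes GCOS 4.0 was used, and the probe summary, normalization and log base were not given in the sources used here. Of 45101 probe sets, 64 controls and 133 with an empty value were left out, and probe sets with 1 gene symbol in the platform annotation were averaged per gene (34843 probe sets, 18168 genes). Deposited arrays carry no counts, so their number limits the precision.

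Genes were tested with limma 3.58.1 in R 4.3.3 on group means over all 16 arrays; the age comparisons add the age class per region, and the genotype by age comparisons use 8 groups of 2 arrays. Correlation p-values come from exact permutation and are two-sided. Scripts were tested on simulated data. Promoter windows and coordinates are RefSeq, GRCm38.p6.

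The members and lists were chosen with earlier results of these data known. Named were all members and up to 2 genes of smallest p from each list in each comparison of genotype or age. The 5 genes most like Hspa1b, Hsph1, Hspa5 and Pdia4 were named too. Xbp1, Dnajb11, Sdf2l1, Pdia3 and single marker genes (such as Gabra6, Arc and Alas2) are also described by their values, some after these were seen. Alternatives were the probe set as unit, quantile normalization, median subtraction, a fit per region, array weights, robust eBayes, a variance filter, the replicate block, age in months, no genotype term, and leaving out arrays; 2 were added after seeing the data, arrays left out for the genes named from the lists and the endoplasmic reticulum list without Cabp1.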

Additional observations from a re-analysis of the deposited data

Results flagged for a closer look

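In 40 sets of 4 arrays (each member in each group), 2 held an array far from the other 3 by Dixon's 95% criterion, and about 2 are expected by chance. Hspb1 stood at 2.37 on hippocampus wild-type replicate 1, with the nearest wild-type array at 0.11, a gap of 0.842 of the range; the cerebellar marker lists that are raised on this array are given with the age comparison, and their part was not tested. Hspa8 stood at -0.19 on cerebellum mutant replicate 2, with the nearest mutant array at 0.05, a gap of 0.937 of the range; most of it came from 1 probe set at -0.57, against -0.11, -0.05 and -0.01 for the other 3.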

How the results depend on the processing

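No member was called by limma in any setting of the genotype, age or between-region comparisons, and the lowest adjusted p of a member over their settings was 0.221, for Hspb1 by age in the hippocampus with age in months. The exception was genotype by age in the hippocampus without hippocampus wild-type replicate 2, where 1 member, Hspb1, was called among 350 genes; the older wild-type class there is the lone wild-type replicate 1, assumed to vary like the other groups. Over all genes, settings called at most 7 genes for genotype in the hippocampus, 7 for age in the cerebellum and 20 for age in the hippocampus. Of the signs of member differences by genotype and age, 39 of 472 reversed under other settings and 41 of 320 with 1 array left out, none of them called; the cause was not tested. Arrays of the same replicate number correlated little in their deviations from group means (from -0.19 to 0.23). This does not settle whether they share a mouse or a batch. The replicate block joined same-numbered mutant and wild-type arrays of a region, never arrays of different regions. In this balanced layout it cannot move the differences by genotype or age, only their standard errors. The medians thus had to stay at 0.0098 for genotype in either region and at -0.13 and -0.05 for age, with Hsp90b1 by age in the cerebellum at -0.21. With this block 0 members were called. The low-variance filter kept 8 members. Array number and probe sets that disagree limit the precision.

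With age in months as a term, the signs that reversed were for genotype in the cerebellum Hspa1b -0.0015, Hspa5 -0.0603, Hsp90b1 -0.0335, Hsph1 -0.0493 and for genotype in the hippocampus Hspa1b -0.0216, Hspa5 -0.0177. With age in months as a slope, the signs that reversed were for age in the cerebellum Dnajb1 -0.0551 and for age in the hippocampus Hspa8 -0.019, Hsph1 0.00796. With quantile normalization, the signs that reversed were for genotype in the cerebellum Hspa8 0.0368 and for genotype in the hippocampus Hspa1a -0.0077, Hspa1b -0.0338 and for age in the hippocampus Hspa1a 0.0168, Hspa1b 0.0334. With array weights, the signs that reversed were for genotype in the cerebellum Hspa8 0.0568, Hspb1 0.0103 and for genotype in the hippocampus Hspa1a -0.0597, Hspa1b -0.0808, Dnajb1 -0.000819 and for age in the cerebellum Hspb1 0.0197 and for age in the hippocampus Hspa1a 0.0671, Hspa1b 0.0845, Dnajb1 0.0234. With probe sets tested singly, the signs that reversed were for age in the hippocampus Hspa8 -0.022. Without the 4 arrays on which lists of another tissue were raised, the signs that reversed were for genotype in the cerebellum Hspa5 -0.0576, Hsp90b1 -0.0245, Hsph1 -0.0248 and for genotype in the hippocampus Hspa1a -0.0893, Hspa1b -0.12, Hsp90aa1 0.0416, Dnajb1 -0.0531 and for age in the hippocampus Hspa1a 0.22, Hspa1b 0.18, Hspa8 -0.0269, Dnajb1 0.0626. Without the arrays with raised poly-A controls, the signs that reversed were for genotype in the cerebellum Hspa5 -0.0157, Hspa8 0.056, Hsp90b1 -0.000384, Hsph1 -0.0145. With 1 array left out, values that crossed 0 for genotype in the cerebellum ranged: Hspa1b -0.00546 to 0.16, Hspa5 -0.0576 to 0.0662, Hspa8 -0.0727 to 0.0662, Hsp90aa1 -0.0339 to 0.0146, Hsp90b1 -0.0245 to 0.13, Hspb1 -0.10 to 0.0284, Hsph1 -0.0453 to 0.0834. With 1 array left out, values that crossed 0 for genotype in the hippocampus ranged: Hspa1a -0.11 to 0.19, Hspa1b -0.12 to 0.13, Hspa5 -0.015 to 0.093, Hspa8 -0.0854 to 0.0373, Hsp90aa1 -0.0444 to 0.0291, Hspb1 -0.73 to 0.17, Dnajb1 -0.0295 to 0.16, Pdia4 -0.00757 to 0.0596. With 1 array left out, values that crossed 0 for age in the cerebellum ranged: Hspb1 -0.12 to 0.0346, Dnajb1 -0.0627 to 0.0544. With 1 array left out, values that crossed 0 for age in the hippocampus ranged: Hspa1a -0.22 to 0.13, Hspa1b -0.15 to 0.15, Hspa8 -0.0181 to 0.13, Hsph1 -0.13 to 0.0588, Dnajb1 -0.17 to 0.0551. The count of members called for genotype by age in the hippocampus was 0 to 1 with 1 array left out.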
